A study of Mus musculus with 24 samples.

Results

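The microRNAs of male c-Raf transgenic lungs were compared with those of male wild type lungs. Male SP-C/c-raf mice (M c-Raf) and male wild type mice (M WT) were represented by 6 arrays each, chosen by their labels, out of 24 arrays in all. The other 12 arrays came from female transgenic (F c-Raf) and female wild type (F WT) animals. In the transgenic mice the surfactant protein C promoter, which is active in alveolar epithelial cells, drives c-Raf-1-BxB, a form of the c-Raf kinase that lacks its amino-terminal part and is constantly active. All animals, transgenic and wild type, were 4 to 6 months old, and no treatment is named. The study describes cells cut by laser from stained frozen lung sections before RNA was extracted, and it also speaks of RNA extracts from lungs. The labels do not say which cells were chosen in the wild type lungs. The tissue label is lung adenocarcinoma on all 24 arrays, wild type included. The wild type arrays carry no transgene, and each array is given as 1 animal.

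MicroRNAs are short RNAs that lower the output of messenger RNAs with which they pair, mostly through bases 2 to 8, the seed. Family members with the same seed can share targets. The RAF kinases pass the RAS signal on to MEK and ERK, and several microRNAs are known in this pathway: let-7 represses Ras messages, and transcription of miR-21 is raised by RAS and ERK signalling. In lung tissue the miR-200 family marks epithelium, miR-126 marks endothelium, and miR-214 with the miR-199 family marks fibroblasts and other mesenchymal cells.

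The mature sequences of the miRNAs on which the comparison turned are printed here from RefSeq (assembly GRCm38.p6), with the seed in capitals. A RefSeq sequence was matched for 99 of the 120 tested miRNAs (82.5%), 20 by the exact name and 79 through the newer name of the same arm. The first 2 differed between the male groups past the threshold, and the following 8 were the next by p-value that had a sequence.

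miR-214: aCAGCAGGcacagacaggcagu
miR-26b: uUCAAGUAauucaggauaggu
miR-193b: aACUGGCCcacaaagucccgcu
miR-126-3p: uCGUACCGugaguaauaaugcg
miR-1895: cCCCCGAGgaggacgaggagga
miR-130a: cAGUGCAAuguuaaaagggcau
miR-21: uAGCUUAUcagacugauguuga
miR-423-5p: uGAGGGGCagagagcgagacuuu
miR-27b: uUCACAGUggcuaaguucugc
miR-16: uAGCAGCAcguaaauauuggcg

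No 2 of these 10 share a seed. miR-214 lies at chr1:162223438-162223459 on the plus strand (Mir214), within the transcript Dnm3os that runs opposite to Dnm3. miR-26b lies at chr1:74394324-74394344 on the plus strand (Mir26b), in an intron of Ctdsp1. miR-21 lies at chr11:86584120-86584141 on the minus strand (Mir21a), and miR-126-3p at chr2:26591402-26591423 on the plus strand (Mir126a), in an intron of Egfl7. miR-486, which also differed past the threshold, is named only.

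The arrays hold 611 mouse miRNAs in 20 spots each, of which 197 were detected on at least 1 of the 12 male arrays and 27 on every one of them. Brightness, the 75th percentile of spot intensity over those 27 miRNAs, ran from 34.9 to 1212 intensity units in M c-Raf and from 52.8 to 231 in M WT. The number detected per array was 124, 60, 100, 179, 137 and 38 in M c-Raf replicates 1 to 6, and 93, 51, 66, 71, 72 and 76 in M WT. M c-Raf thus held both the array with the most detected miRNAs (replicate 4) and the one with the fewest (replicate 6), and the groups overlapped. The group means stood 34.8 apart (exact permutation p = 0.149, two-sided), which was less than the SD of M c-Raf (51.7) but more than that of M WT (13.7). Log2 brightness was 1.18 higher in M c-Raf (exact permutation p = 0.186). Without M c-Raf replicate 6 alone, these differences were 48.5 miRNAs (exact permutation p = 0.0281) and 1.82 (exact permutation p = 0.0108). M c-Raf was brighter on 5 of 6 slides. The replicate number is the slide, each slide held 1 array of each group, and M c-Raf and M WT sat at a fixed place of their own on every slide, so position and genotype cannot be told apart.

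**Figure D1:**
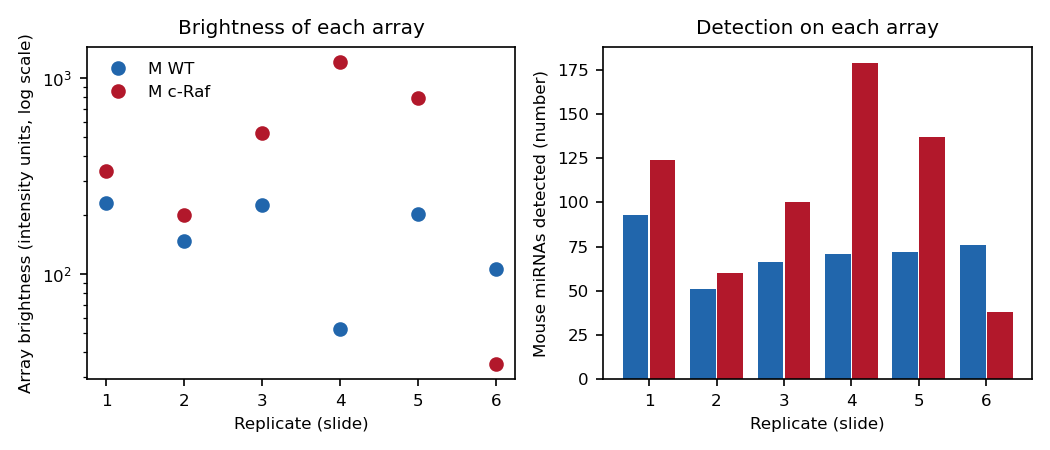
Brightness (left, intensity units on a log axis) and number of mouse miRNAs detected (right) on each male array, by replicate, which is also the slide. On slides 1 to 5 the M c-Raf array is brighter and detects more miRNAs than its M WT partner, and on slide 6 it is the other way round, with 38 detected against 76.

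Which miRNAs differed with the transgene was tested on the 120 miRNAs that 6 or more of the 24 arrays detected, using log2 intensities scaled to the brightness of each array. limma called 3 of the 120 (2.5%) at an adjusted p under 0.05: miR-26b was up-regulated in M c-Raf, and miR-214 and miR-486 were down-regulated. At an unadjusted p under 0.05 there were 25, of which 17 were higher and 8 lower. The median difference over the 120 was 0.13 on the log2 scale, 70 were higher and 50 lower in M c-Raf, and 13 differed by more than 1. Other scalings moved this median, to 1.01 with the 75th percentile over all non-control spots, 1.02 in the deposited table, 1.16 with the methods' t-test, 0.00 with a floor of 0.1, -0.65 with each array's floor raised to its own lowest signal well above background (the raised floor) and -0.79 with normexp background correction. A difference in one of these settings can be set beside its median. On the scaled log2 axis the raised floor lay from -7.08 to -1.54 in M c-Raf and from -4.48 to -2.56 in M WT. On M c-Raf replicate 4 it was thus below the main floor of -6.64. Where a miRNA is dimmer than this floor, the floor sets its value. The sign of a dim miRNA's difference there therefore does not test a direction. The percentile over all non-control spots was 1.17 to 5.84 intensity units on the male arrays. Their negative control spots had an SD of 2.19 to 7.61. The deposited table and the methods' t-test scale to the percentile of all spots, controls included. In the latter setting differences are log2 ratios of linear means. For families and lists the median relative to that of all tested miRNAs is given beside any count of signs that turned. Normexp added an offset of 50 to every spot before the scaling to brightness. Through that offset the value of a dim miRNA depends on the brightness of its array. Counts of signs of dim miRNAs with normexp therefore do not test a direction either. The settings did not move all miRNAs alike. With the raised floor the median of the let-7 family stayed at 0.26, but relative to all tested miRNAs it rose from 0.13 to 0.91. A relative median therefore does not by itself show that a family was higher or lower. The values of the groups did not overlap for 3 of 120 (2.5%), namely miR-214, miR-26b and miR-322. In RNA pooled from many cells, fewer cells of a type and less RNA per cell cannot be told apart.

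miR-214, a product of the mesenchymal Dnm3os transcript, had log2 intensities of -3.30, -3.24, -3.38, -3.40, -3.10 and -3.11 in M c-Raf replicates 1 to 6. In M WT they were -2.42, -2.50, -2.48, -1.34, -2.25 and -2.40. All 6 M c-Raf arrays lay below all 6 M WT arrays, M WT replicate 4 was far above its group, and the miRNA was detected on all 12. The difference was -1.03 (SE 0.19, limma adjusted p = 0.00297; 0.00702 with the slide as a block), a 2.04-fold lower intensity on the main scale, and no slide went the other way. Within scan batches 1 to 4 it was -2.06, -0.78, -0.88 and -0.82. Its 2 probes gave -1.08 and -0.83. Without any 1 male array the call held, with adjusted p from 0.00258 to 0.0108. It did not hold with the 75th percentile over all non-control spots (-0.33, adjusted p = 0.756) or the deposited table (-0.30, 0.773). That percentile lay near the spread of the negative controls, as given above. The call was also lost with normexp (-0.78, 0.217) and the raised floor (-0.81, 0.266). Nor did it hold in the setting of the methods' t-test, where the log2 ratio of linear means, scaled to all spots, was 0.10. The other tested members of the mesenchymal list were not lower: miR-199a-3p differed by 0.30 (adjusted p = 0.283) and miR-199b* by 0.48 (adjusted p = 0.333). The list's summed scaled intensity was 0.255 to 0.309 in M c-Raf and 0.312 to 0.495 in M WT. This sum includes miR-214 itself, so it is not separate from the difference of miR-214.

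miR-486, which is abundant in red blood cells, had log2 intensities of -4.00, -4.22, -3.89, -3.75, -3.35 and -2.98 in M c-Raf and of -2.06, -2.46, -2.56, -1.90, -1.22 and -3.52 in M WT. M WT replicate 6 lay within the range of M c-Raf, and slide 6 was the only one on which M c-Raf was higher. The difference was -1.41 (SE 0.33, limma adjusted p = 0.0161; 0.0242 with the slide as a block), and within scan batches 1 to 4 it was -1.85, -0.80, -1.93 and -1.55. Without M WT replicate 4 the adjusted p was 0.0509, and without any other single male array the call held. The call was lost too under the settings that ended that of miR-214, and with quantile normalization (adjusted p = 0.103), total gene signal (0.0635), no filter (0.104) and the male arrays fitted alone (0.0537). The direction held in all settings tried. Of the other red cell markers, miR-451 differed by 0.64 in the other direction (adjusted p = 0.305) and miR-144 was detected on no male array. The part of red cells in the miR-486 difference was not tested.

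miR-26b, which shares its seed with miR-26a, was the only called miRNA that was up-regulated. Its log2 intensities were -4.72, -4.65, -4.29, -4.25, -4.72 and -4.13 in M c-Raf and -5.64, -4.84, -5.09, -6.64, -6.19 and -6.24 in M WT. The groups did not overlap, but the gap between the nearest arrays was small, and M WT replicate 4 was at the floor of -6.64 (0.01 of the brightness). The difference was 1.31 (SE 0.32, limma adjusted p = 0.0190; 0.0126 with the slide as a block) on 6 of 6 slides, and 2.39, 1.79, 0.91 and 0.50 within scan batches 1 to 4. The software detected it on 4 arrays of M c-Raf but 1 of M WT, and on each of the 6 M WT arrays it was dimmer than that array's lowest signal well above background. The call was lost without M c-Raf replicate 4 (adjusted p = 0.0522), M WT replicate 4 (0.0693) or M WT replicate 6 (0.0646), and the sign turned to -0.50 with the raised floor and to -0.65 with normexp, settings in which the median of all tested miRNAs was also negative, while with a floor of 0.1 it was 0.00. The call was lost as well with quantile normalization (adjusted p = 0.103), total gene signal (0.125), no filter (0.118), all non-control spots in the percentile (0.311), the deposited table (0.334), the methods' t-test (0.304) and the male arrays fitted alone (0.0537), with the difference still between 1.26 and 2.88.

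**Figure D2:**
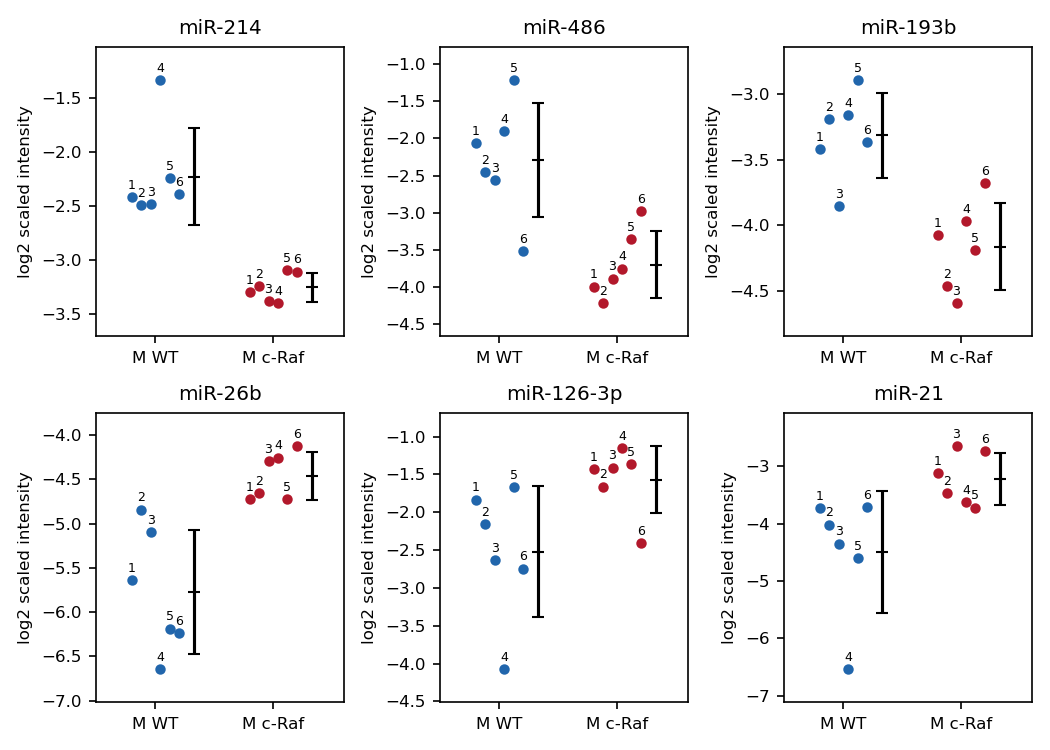
Log2 scaled intensity of 6 miRNAs on each male array, numbered by replicate, with the group mean and SD as a bar at the right of each group. The M c-Raf arrays of miR-214 all lie below M WT and those of miR-26b all above it, while in miR-126-3p and miR-21 M WT replicate 4 lies lowest.

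Of the 20 miRNAs with the smallest p, 13 were higher and 7 lower in M c-Raf. Besides the 3 called, none passed the adjustment, with adjusted p from 0.0906 to 0.186. Of these 20, 6 were higher and 4 lower on all 6 slides, and among all 120 tested the numbers were 8 and 8. Within the 4 scan batches 18 of the 20 kept 1 direction. The 2 probes of each differed in the same direction.

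Among the lower ones, miR-193b had log2 intensities of -4.59 to -3.68 in M c-Raf and of -3.85 to -2.89 in M WT, so that only M WT replicate 3 fell into the M c-Raf range. Its difference was -0.85 (SE 0.25, limma adjusted p = 0.0906). It passed the threshold without M c-Raf replicate 6 or without M WT replicate 3, the lowest adjusted p being 0.0348. miR-1895 differed by -1.03 (adjusted p = 0.108), miR-423-5p by -0.72 (0.137) and miR-455, which lies in an intron of Col27a1, by -0.83 (0.137). miR-328 differed by -1.13 (adjusted p = 0.186), but M c-Raf was higher on 3 of 6 slides. Its values in M WT were -3.65, -4.03, -5.00, -1.30, -1.57 and -3.81, with replicates 4 and 5 far above the rest, and those in M c-Raf lay between -4.94 and -3.72.

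Among the higher ones, miR-126-3p, the endothelial miRNA, had log2 intensities of -1.43, -1.66, -1.41, -1.15, -1.36 and -2.41 in M c-Raf and of -1.83, -2.16, -2.63, -4.07, -1.67 and -2.75 in M WT. M c-Raf was higher on every slide although the ranges overlapped. On average it was 0.95 higher (SE 0.30, limma adjusted p = 0.108), or 0.64 without M WT replicate 4. The other strand of the same hairpin, miR-126-5p, was detected on no male array.

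miR-21, a repressor of Pdcd4, had values of -3.12, -3.47, -2.65, -3.63, -3.72 and -2.74 in M c-Raf. In M WT they were -3.73, -4.02, -4.35, -6.54, -4.60 and -3.72. M WT replicate 6 just reached the lower end of M c-Raf and replicate 4 stood apart. The difference of 1.27 (SE 0.44, limma adjusted p = 0.123) ranged from 0.86 to 1.42 with 1 male array left out and was called in none of these 12 fits, and with normexp it was -0.39.

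M WT replicate 4 stood apart in other miRNAs as well. miR-130a lay between -3.67 and -3.25 in M c-Raf. Its M WT values were -4.19, -3.35, -3.53, -6.64, -5.62 and -4.32, with replicate 4 at the floor. Its difference of 1.20 (adjusted p = 0.108) was 3.31 within scan batch 1, which held slide 4 alone, and 0.15 within scan batch 4. miR-99a, miR-27a and miR-107 differed by 0.87, 0.78 and 0.46 (adjusted p = 0.186 each). M WT replicate 4 was the lowest M WT array in all 3, and without it their differences were 0.47, 0.34 and 0.22. With normexp these 3 and miR-130a were lower in M c-Raf. miR-31, detected in 4 M c-Raf animals and in no M WT animal, differed by 0.82 (adjusted p = 0.137), with 4 of 6 M WT arrays at the floor, and with the raised floor it was -0.85. miR-342-3p, from an intron of Evl, and let-7d were detected on at least 5 arrays of each group. They were 0.55 and 0.36 higher (adjusted p = 0.137 each), the first on 6 and the second on 5 of 6 slides, though miR-342-3p was at -0.32 with normexp.

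**Figure D3:**
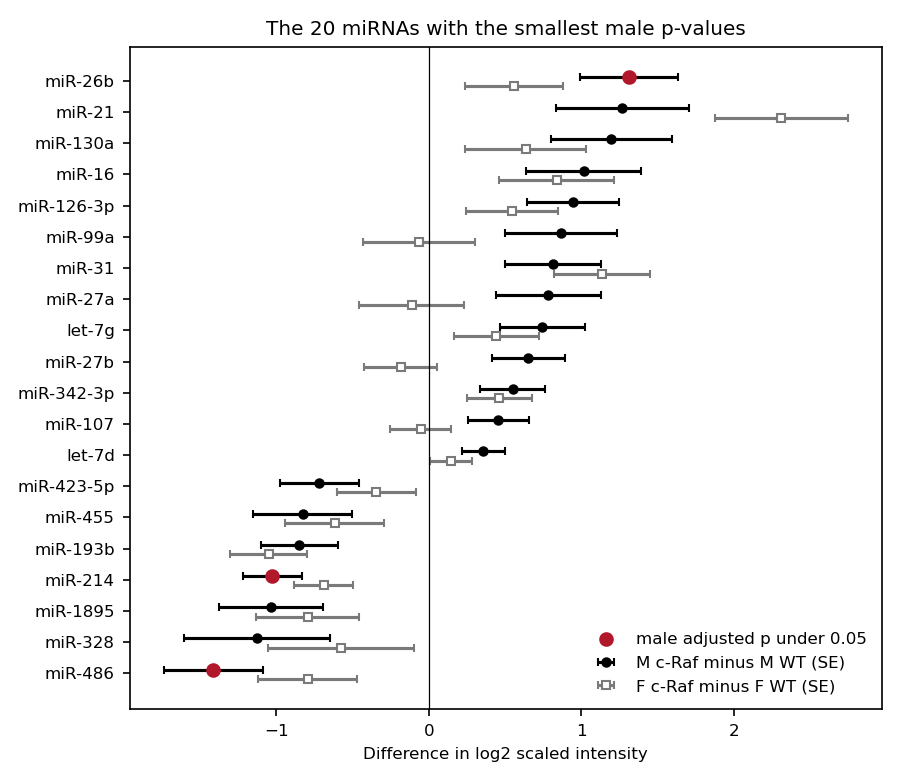
Difference in log2 scaled intensity between c-Raf and WT, with its SE, for the 20 miRNAs with the smallest male p. Filled circles are males and open squares females, and the 3 red points (miR-26b, miR-214, miR-486) had a male adjusted p under 0.05; all 7 miRNAs that were lower in males had a female value below 0 too.

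The 10 miRNAs with the highest mean scaled intensity over the male arrays included 5 of the let-7 family. let-7b, with the highest mean of all tested miRNAs in both groups, had a mean of 2.99 ± 0.14 (SD, n = 6) in the transgenic group and 3.37 ± 0.49 in M WT. let-7c followed at 1.51 ± 0.34 and 1.74 ± 0.48, and let-7a at 0.39 ± 0.25 and 0.13 ± 0.33. None of the 10 was called (lowest adjusted p = 0.137, for let-7d), and 2 of the 10 had an unadjusted p under 0.05. Of the 10, 6 were higher and 4 lower in M c-Raf. miR-15b, miR-24, miR-22, let-7e and miR-200c differed by 0.17, 0.17, 0.21, -0.06 and 0.03, none far above its SE, which ran from 0.14 to 0.29. miR-1224 had the widest spread of them: it was at 3.18 in M WT replicate 5 and between -1.30 and 0.15 on the other M WT arrays, and its difference was -1.31 (SE 0.58, adjusted p = 0.186).

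Detection itself was uneven. Taking those on at least 4 of 6 arrays, M c-Raf had 100 miRNAs and M WT 57, of which 56 were common to both. The 1 miRNA detected so only in M WT was miR-702, which was named after its values were seen. Detected on at least 4 M c-Raf arrays and at most 1 M WT array were 24 miRNAs, and 0 the other way round. All 24 were found on the same 4 M c-Raf arrays, replicates 1, 3, 4 and 5, which were the 4 brightest male arrays of all. The 24 include miR-31, miR-155, miR-200a, miR-221, miR-322 and miR-449a, detected on 0 M WT arrays, and miR-16, miR-26b, miR-106b, miR-146a, miR-183, miR-223 and miR-429, detected on 1. On the scaled intensities 18 of the 24 were higher in M c-Raf and 6 lower, 4 had an unadjusted p under 0.05 by limma and 1 (miR-26b) was called. Among all 120 tested, 70 were higher and 50 lower, 25 had such a p and 3 were called. The 24 were picked by their detection on these same arrays, so their lean to higher values is not separate evidence. For miRNAs detected on 0 M WT arrays no fold is given as a bound, since even in M c-Raf their mean was dimmer than the faintest clear signal of the M WT arrays, and their differences on the floored log2 scale are fitted values that depend on the floor. The part of brightness in these differences of detection was not tested.

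miR-322, of the miR-15/16 seed, shows this pattern. All 6 M WT arrays were at the floor of -6.64, and the M c-Raf arrays were at -5.87, -6.43, -5.17, -6.25, -6.58 and -6.25. The groups did not overlap, although the difference of 0.55 was not called (SE 0.34, limma adjusted p = 0.304).

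Families of tested miRNAs with the same seed were then set side by side. The miR-15/16 family, which represses cyclins and Bcl2, and the let-7 family are printed because they were the largest and behaved differently. Every tested member of the first was higher in M c-Raf with the main scaling, and members of the second lay on both sides.

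miR-15a: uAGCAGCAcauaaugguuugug
miR-15b: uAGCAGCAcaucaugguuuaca
miR-195: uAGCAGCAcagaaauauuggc
miR-497: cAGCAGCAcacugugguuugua
miR-322: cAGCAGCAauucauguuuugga
let-7a: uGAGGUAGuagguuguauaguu
let-7b: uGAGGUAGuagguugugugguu
let-7c: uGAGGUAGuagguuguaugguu
let-7d: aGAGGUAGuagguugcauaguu
let-7e: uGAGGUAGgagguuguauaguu
let-7f: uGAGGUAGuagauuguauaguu
let-7g: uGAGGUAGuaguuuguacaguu
let-7i: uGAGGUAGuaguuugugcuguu
miR-98: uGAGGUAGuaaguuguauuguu

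In the miR-15/16 family, miR-16 differed by 1.02 (adjusted p = 0.137), miR-322 by 0.55, miR-195 by 0.54, miR-15a by 0.37, miR-497 by 0.28 and miR-15b by 0.18. Thus 6 of 6 were higher, with a median of 0.45 beside 0.13 over all tested, and 0 were called. The count higher was 1 of 6 with normexp and 2 of 6 with the raised floor, where the median of all tested miRNAs was negative. The family's median lay 0.33 above that of all tested miRNAs with the main scaling, and 0.24 and 0.50 above it in these settings. In the let-7 family 5 of 9 were higher, from let-7g (0.74, adjusted p = 0.137) through let-7i, let-7f, let-7d and let-7a, and 4 were lower: let-7b (-0.38, adjusted p = 0.234), let-7c (-0.23), miR-98 (-0.16) and let-7e (-0.06). The family's median was 0.26. The count higher was 9 of 9 with the 75th percentile over all non-control spots and 3 of 9 with normexp, while relative to all tested miRNAs the family's median was 0.13 with the main scaling, -0.05 with that percentile and 0.72 with normexp. These sequences are close to one another, so a probe may also take up RNA of another member, and values within the family are uncertain. let-7 and miR-98 are repressors of Ras and Hmga2 messages.

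The smaller families held 2 or 3 members each. miR-26a was 0.43 higher (adjusted p = 0.350) on only 2 of 6 slides beside 1.31 for miR-26b, and both were lower with normexp, where their median was 0.36 above that of all tested miRNAs. miR-27a and miR-27b were 0.78 and 0.65 higher, though lower with normexp and the raised floor (0.17 and 0.40 above the median of all tested), and the 5 tested members of the miR-23, miR-27 and miR-24 clusters were all higher, with a median of 0.34, with 2 of 5 higher with normexp and 3 of 5 with the raised floor, though there the list's median was 0.75 and 0.82 above that of all tested miRNAs. miR-181a and miR-181b were the only one of the 14 families with all members lower, at -0.44 and -0.73 (adjusted p = 0.311 and 0.216), each on 6 of 6 slides, but 1 of the 2 was higher with the 75th percentile over all non-control spots and both with the methods' t-test. Relative to all tested miRNAs the median of the pair was -0.72 with the main scaling, -1.20 with that percentile, -0.37 by the methods' t-test, 0.04 with normexp and 0.18 with the raised floor.

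**Figure D4:**
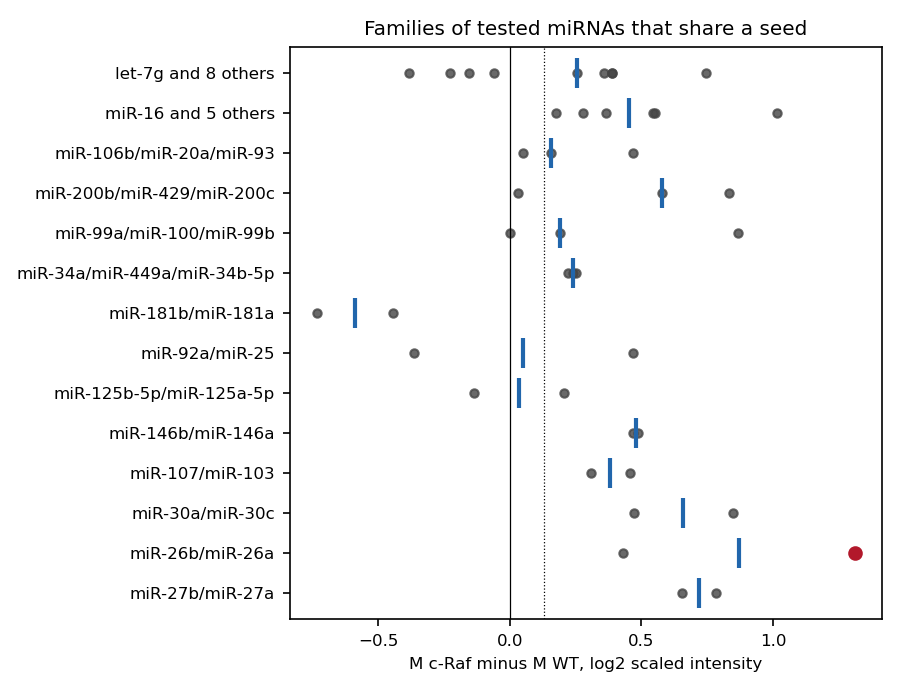
M c-Raf minus M WT (log2 scaled intensity) for each tested miRNA of the 14 families that share a seed; dots are miRNAs, blue ticks are family medians, the red dot is the called miR-26b, and the dotted line is the median of all 120. With the main scaling the 6 members of the miR-16 family lie above 0 and the 9 of the let-7 family spread from -0.38 to 0.74.

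Lists of miRNAs by cell type and pathway gave few members past a threshold. For dim members of these and the later lists, the counts with normexp and the raised floor do not test a direction. Of the miR-200 family, which holds epithelial cells in their state by repressing Zeb1 and Zeb2, 4 of 5 were tested, 0 were called and 4 were higher, against 0 of 4 with normexp and 2 of 4 with the raised floor, where the family's median was 0.29 and 0.47 above that of all tested miRNAs. miR-200b was 0.83 higher (adjusted p = 0.186), miR-429 0.58, miR-200a 0.54 and miR-200c 0.03. The median was 0.56. The summed scaled intensity of the family overlapped between the groups, at 0.671 to 1.97 in M c-Raf and 0.611 to 1.39 in M WT. miR-183, of the sensory and epithelial miR-183 cluster, was 0.57 higher (adjusted p = 0.203), while miR-96 and miR-182 of the same cluster were detected on no male array.

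Of 7 miRNAs linked to RAS, RAF and ERK signalling, 4 were tested. miR-21, miR-31, miR-221 and miR-155 were higher by 1.27, 0.82, 0.52 and 0.18. None was called, and 0 of the 4 were higher with normexp and 1 of 4 with the raised floor, where the list's median was -0.01 and -0.25 relative to all tested miRNAs. The p53 target miR-34 family gave a median of 0.22 over 3 tested members, and 5 tested members of miR-17-92 and its paralogs a median of 0.16, both close to the 0.13 of all tested miRNAs. In the leukocyte list 7 of 9 were tested, with 0 called, 5 higher and 2 lower, against 0 higher with normexp and 1 with the raised floor, where the list's median was -0.04 and -0.35 relative to all tested miRNAs. miR-223, a myeloid miRNA, was 0.75 higher (adjusted p = 0.203) and miR-342-3p 0.55, while miR-150 and miR-181a were at -0.30 and -0.44. miR-142-3p and miR-142-5p, which define blood-derived cells, were detected on no male array.

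Markers of other tissues were looked up as well, though absence says little here. Of all 611 mouse miRNAs, 414 were detected on no male array, among them miR-126-5p, miR-142-3p and miR-142-5p of endothelial and blood-derived cells. miR-1, miR-206, miR-208a, miR-208b and miR-499 of heart and skeletal muscle, and miR-124 and miR-9 of brain, were detected on no male array, and miR-122 of liver on 1 array of each group. miR-133a and miR-133b, also of muscle, were the exception. Both were detected on 4 arrays of M c-Raf, and on 3 and 4 of M WT, and differed by -0.47 and -0.91 (adjusted p = 0.577 and 0.262). Of 20 miRNAs of the imprinted Dlk1-Dio3 cluster, 17 were detected on no male array and 1, miR-127, was tested. Over all 611 mouse miRNAs these numbers were 414 and 120. miR-127 was at the floor on every M WT array, and its difference of 0.49 was not called (adjusted p = 0.438). Of the 13 miRNAs that the study tabulated for this platform, 8 were tested, 8 were higher, and 0 were called, with a median of 0.49, while 0 of 8 were higher with normexp, where the list's median was -0.04 relative to all tested miRNAs. The study chose part of that list by its change on these samples, so the list's direction is not independent evidence.

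The sign of the male difference went with the base composition of the miRNA, a relation that was looked for after the differences had been seen. Among the 99 tested miRNAs with a sequence, Pearson's r between the G+C content and the difference was -0.59 and Spearman's rho -0.54. This is a relation across miRNAs that were measured on the same 12 arrays and are not independent. Of 15 miRNAs with under 40% G+C, 12 were higher in M c-Raf, and of 40 with 40 to under 50%, 32 were. Of 34 with 50 to under 60%, 18 were higher and 16 lower. Of the 10 with 60% and over, 2 were higher and 8 lower, and their median difference was -0.60. Among the called miRNAs, miR-26b, up-regulated, has 33.3% G+C and miR-214, down-regulated, has 59.1%. For the 24 with a sequence that were detected on all 12 male arrays, r was -0.76, and in females r was -0.40 over the 99 (rho -0.47). The settings of scaling and background left r between -0.60 and -0.34.

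The trend was then measured on each array as the slope of the deviations from the mean of the male arrays on G+C content, in log2 units per 10 percentage points. It was -0.14, -0.23, -0.39, -0.33, -0.12 and 0.11 in M c-Raf replicates 1 to 6, and 0.08, -0.11, -0.08, 0.60, 0.45 and 0.18 in M WT. M WT replicates 4 and 5 had the steepest positive slopes, and M c-Raf replicate 6, the dimmest array, was the one positive slope of its group. M c-Raf was lower than M WT on all 6 slides. The means were -0.18 ± 0.18 (SD, n = 6) and 0.18 ± 0.29, and the difference of -0.37 had an exact permutation p of 0.0195 (two-sided), adjusted to 0.0584 over the 3 array measures tested. Within scan batches 1 to 4 it was -0.93, -0.32, -0.22 and -0.21. The difference between the mean slopes restates the relation above on the same miRNAs and arrays. Its p-value does not account for that relation having been chosen after the differences were seen. With each array's trend removed, 0 of the 99 were called, with 17 at an unadjusted p under 0.05 by limma, against 2 of these 99 with the trend kept. The difference of miR-214 was then -0.62 (SE 0.17, limma adjusted p = 0.0805) and that of miR-26b 0.77 (SE 0.21, adjusted p = 0.0805). Removing the trend also removes any genotype difference that runs with base composition. The cause of the trend was not tested.

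**Figure D5:**
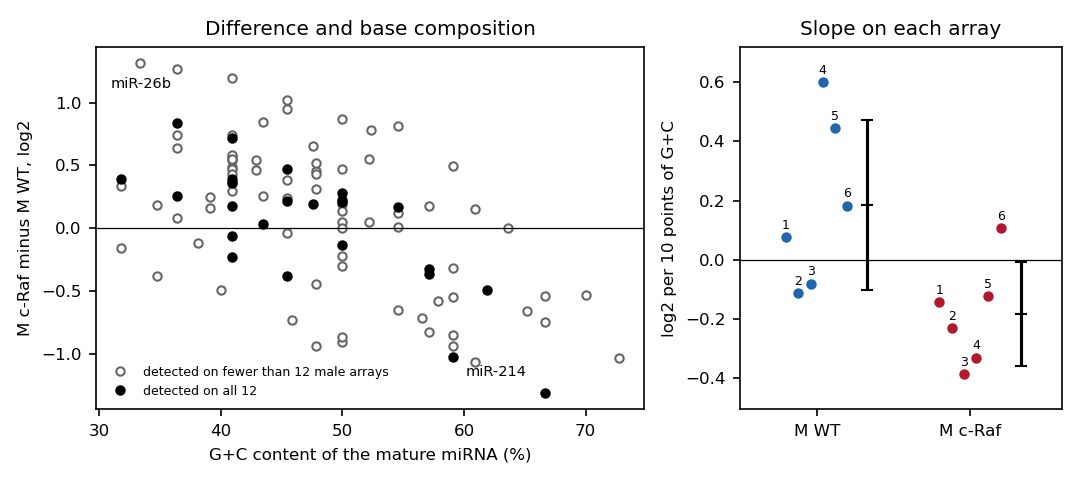
Left, M c-Raf minus M WT (log2 scaled intensity) against the G+C content of the mature miRNA for 99 miRNAs, filled where detected on all 12 male arrays. Right, the slope on G+C content of each male array, numbered by replicate, with group mean and SD; M WT replicates 4 and 5 are at 0.60 and 0.45, and 5 of 6 M c-Raf arrays lie below 0.

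The female arrays gave the same comparison in other animals on the same slides. Both c-Raf groups sat in row 1 and both WT groups in row 2 of every slide, so position and genotype cannot be told apart here either. limma called 6 of 120 in females (5%). Of the 3 male calls, miR-214 was among these 6, at -0.69 (SE 0.19, adjusted p = 0.0338). miR-486 was at -0.80 (adjusted p = 0.223) and miR-26b at 0.56 (adjusted p = 0.423) there. miR-193b was at -1.05 in females (adjusted p = 0.0179) and -0.85 in males, miR-31 at 1.14 (adjusted p = 0.0338) and 0.82, and miR-21 at 2.31 (adjusted p = 0.00157) and 1.27. The other 2 female calls were further from the male values: miR-146b, a regulator of inflammatory signalling, was at 1.87 in females (adjusted p = 3.9e-05) and 0.49 in males (0.244), and miR-127 at 1.63 (0.0338) and 0.49 (0.438). Among the 25 miRNAs with an unadjusted male p under 0.05, 21 had the same sign in females, and among all 120 tested it was 77. The difference between the male and the female effect was tested as an interaction, which limma called for 0 of 120 (0%), while 5 had an unadjusted p under 0.05. miR-146b came first by p, with a male minus female effect of -1.38 (SE 0.37, limma adjusted p = 0.126), and it was the 1 miRNA called once the G+C trend was removed. miR-27a, miR-27b, miR-99a and miR-107 were at -0.11, -0.19, -0.07 and -0.05 in females, and their interaction had an adjusted p of 0.872 each.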

How the data were processed

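Total RNA was Cy3-labelled for 1-colour Agilent mouse miRNA arrays. The deposited scanner files, made by the authors with Agilent Feature Extraction (design build mm9), hold a background-subtracted intensity per spot, unscaled between arrays, with the software's detection flags and, for its alternative, a total gene signal. The authors also deposited a table of linear, uncentred values. On the male arrays 100% of its values lay within 1% of the median spot intensity scaled to the 75th percentile of all spots, and its column medians ran from 299.1 to 1696. The rule that left cells empty is not given in the sources used here, and 0 columns were unmatched.

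Spot intensities of mouse miRNAs were scaled, array by array, to the 75th percentile of the 27 miRNAs detected on all 24 arrays, floored at 0.01 and summarised as the median of 20 spots on the log2 scale, a unit computed here from the deposited intensities. limma 3.58.1 in R 4.3.3 fitted 1 mean per group to all 24 arrays (lmFit, eBayes; 1.80 prior and 20 residual degrees of freedom), with Benjamini-Hochberg adjustment over 120 miRNAs. Array measures were compared by exact permutation over 924 divisions of 12 arrays. Named were the called miRNAs, the 20 with the smallest p, the 10 with the highest mean, those detected on at least 4 arrays of one male group and at most 1 of the other, and members of lists by family, cell type and pathway. The members, lists and tests were chosen with earlier results of these data known. The fit was tested on simulated data. The files used hold no mean signals, so normexp (offset 50) took median signals in place of the planned mean ones. Because of the floor, neither the size nor the sign of a dim miRNA's difference is secure. With the raised floor, miR-26b went from 1.31 to -0.50. No spot was saturated (0), and 6 arrays a group limit the precision. Alternatives covered scaling, background, floor, filter, slide and scan as blocks, arrays left out, the methods' t-test and, added after the data were seen, removal of the G+C trend.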

Additional observations from a re-analysis of the deposited data

Results flagged for a closer look

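An array was singled out where its gap to the nearest other array of its group of 6 was too large for the range of the group. Of 64 groups of values examined, 11 had such an array, where chance in independent groups gives about 5%, or 3.2. These groups share the same male arrays and are not independent, so 11 beside 3.2 is not a test. M WT replicate 4, the dimmest M WT array at 52.8 intensity units, accounted for 7. It lay highest in miR-214 (-1.34, the other 5 arrays between -2.50 and -2.25) and lowest in miR-21 (-6.54), let-7g (-4.31), miR-99a (-6.64), miR-107 (-5.01), miR-27a (-6.64) and miR-24 (-1.42). M c-Raf replicate 6, the dimmest of all, was lowest in miR-16 (-6.64) and miR-24 (-0.84). M c-Raf replicate 2 was lowest in miR-15b (-0.25), where the other 5 lay between 0.05 and 0.21. M WT replicate 5 was highest in miR-1224 (3.18). The values at -6.64 are at the floor.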

How the results depend on the processing

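With 1 of the 12 male arrays left out, the number of miRNAs called ranged from 1 (without M WT replicate 4) to 7 (without M c-Raf replicate 6), being 5 without M WT replicate 3. The difference in number detected ranged from 20.3 to 48.5 and that in log2 brightness from 0.80 to 1.82. miR-200c ranged from -0.18 to 0.17 and let-7e from -0.11 to 0.015. Without M c-Raf replicates 4 and 6, the brightest and the dimmest male array, log2 brightness differed by 1.51 (exact permutation p = 0.0286) and miR-200c by -0.12.

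The count of 3 calls became 1 with the 75th percentile over all non-control spots (miR-146b), and 1 (miR-214) with quantile normalization, total gene signal, no filter or male arrays alone. It was 0 with normexp, the raised floor, the deposited table and the methods' t-test after Benjamini-Hochberg, with 3, 10, 13 and 5 at an unadjusted p under 0.05, and 7 with the scan batch as a block. At the methods' own thresholds 11 of the 611 mouse miRNAs passed, all 11 higher, of which 8 were detected on no M WT array. With the slide as a replicate block 3 miRNAs were called, the same 3. The numbers were not taken to pair the animals, since the correlations of deviations within slides 1 to 6 were -0.04, 0.42, 0.51, -0.35, 0.09 and 0.06 and 2 of 6 were highest with the same number. With the G+C trend removed, with or without the replicate block, 0 were called in males and 1 (miR-146b) in the interaction, while let-7a was at -0.18, miR-15b at -0.090 and miR-200c at -0.14. The interaction could not be fitted with male arrays alone or by the methods' t-test.

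Signs turned in these settings. Those of dim miRNAs with normexp and the raised floor do not test a direction, since the offset and the floor bear on them. With normexp, miR-26b was at -0.65, miR-130a at -0.47, miR-21 at -0.39, miR-27b at -0.69, miR-16 at -0.70, let-7g at -0.072, miR-31 at -0.76, miR-342-3p at -0.32, miR-99a at -0.57, miR-107 at -0.51, miR-27a at -0.55 and miR-200c at -0.14. With the raised floor, miR-26b was at -0.50, miR-27b at -0.44, miR-16 at -0.65, miR-31 at -0.85, miR-99a at -0.12 and miR-27a at -0.073. With all non-control spots in the percentile, let-7b was at 0.32, let-7c at 0.47 and let-7e at 0.64. In the deposited table these 3 were at 0.34, 0.50 and 0.66, and miR-423-5p was at 0.0083. By the methods' t-test miR-214 was at 0.10, miR-193b at 0.32, miR-1895 at 0.017, miR-423-5p at 0.42, miR-455 at 0.072, let-7b at 0.81, let-7c at 1.00 and let-7e at 0.93. let-7c was at 0.19 with quantile normalization, and miR-200c at -0.0055 with total gene signal. The cause was not tested.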

Other observations

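Further lists are given beside the median of 0.13 over all tested miRNAs. In the miR-30 family, which is abundant in differentiated epithelium, 4 were tested, 0 were called and 3 were higher, with a median of 0.50, while 4 of 4 were lower with normexp, where the median was 0.37 above that of all tested miRNAs. miR-29a, a repressor of collagen messages, was 0.72 higher (limma adjusted p = 0.203), and miR-29b and miR-29c were detected on 1 and 3 M c-Raf arrays and 0 M WT arrays. A list of the miR-99/100 and miR-125 families with miR-10a had a median of 0.20 over 6 tested, with 5 higher, against 1 of 6 with normexp, where the median was 0.22 above that of all tested miRNAs. miR-103 and miR-107 had a median of 0.38, and both were lower with normexp, where their median was 0.37 above that of all tested miRNAs. Of the further epithelial list 5 were tested and 4 were higher, with a median of 0.25, against 0 of 5 with normexp, where the median was 0.03 above that of all tested miRNAs. miR-193b with miR-365 had a median of -0.26, 1 being higher and 1 lower. miR-143 and miR-145 of smooth muscle were detected on 2 M c-Raf arrays each and 0 M WT arrays, too few to be tested. Of the 39 viral miRNAs on the array, 1 was detected on each male array.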
